A study of Mus musculus with 3 samples.

Results

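The genes described here encode a pair of transmembrane signalling adaptors, Tyrobp and Hcst, and immune receptors of the activating and inhibitory kinds, namely Lilrb4a, Cd300a, Cd300lf, Cd200r1, Trem2 and the low-affinity Fcγ receptors Fcgr2b and Fcgr3. They are 9 of 22180 genes measured, and every probe set naming any of them was taken, 12 of 41345 in all. The set was chosen by function with its log2 levels on these same 3 arrays in view, so the levels and counts describe it and are no independent evidence for it.

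Cells were washed from the peritoneal cavity of naive female BALB/c mice aged 10 to 11 weeks, with no genetic modification or treatment named, and cells of 5 mice were pooled. For mast cell progenitors, for mature mast cells and for type 2 innate lymphoid cells (ILC2), RNA of 100 sorted cells was amplified and hybridised to 1 array. Both mast cell populations were sorted as lineage negative or low, c-kit high, FcεRI positive, T1/ST2 positive, CD127 and CD25 negative, and CD16/32 intermediate. Progenitors were side scatter low and integrin β7 high, whereas mature cells were side scatter high and had integrin β7 from negative to intermediate. ILC2 were lineage negative, c-kit negative or low, FcεRI negative, positive for CD127, CD25 and T1/ST2, and CD16/32 negative. With 1 array per population from a pooled sample there is no replicate error, no test was made, and neighbouring levels in any order below cannot be called different beyond a spread. In such bulk samples fewer cells of a type and less RNA per cell cannot be told apart.

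Tyrobp, also called DAP12, carries an immunoreceptor tyrosine-based activation motif (ITAM) and lends it to receptors that have no signalling tail of their own. Hcst, also called DAP10, works in the same way but recruits phosphoinositide 3-kinase. Inhibitory receptors oppose these signals through inhibitory tyrosine motifs (ITIM) that bind the phosphatases SHP-1, SHP-2 or SHIP-1, and on mast cells several of them are known to dampen signals of FcεRI, the high-affinity IgE receptor.

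Of the 9 genes, 3 had levels that spread over at least 2-fold across the populations, the adaptor genes Tyrobp and Hcst and the inhibitory receptor gene Lilrb4a. The other 6 were flat, with 4 at exactly the same value on all 3 arrays. Among all genes 4.46% spread over at least 2-fold and 47.9% were exactly tied on all 3 arrays. Ties belonged mostly to dim genes. They made up 50.2% of the 21039 genes at or below a log2 level of 8 on every array and 4.73% of the 1141 genes above 8 on any array. All 6 flat genes were at or below 8, so a difference in them may not be seen here. How the ties arose was not tested.

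**Figure D1:**
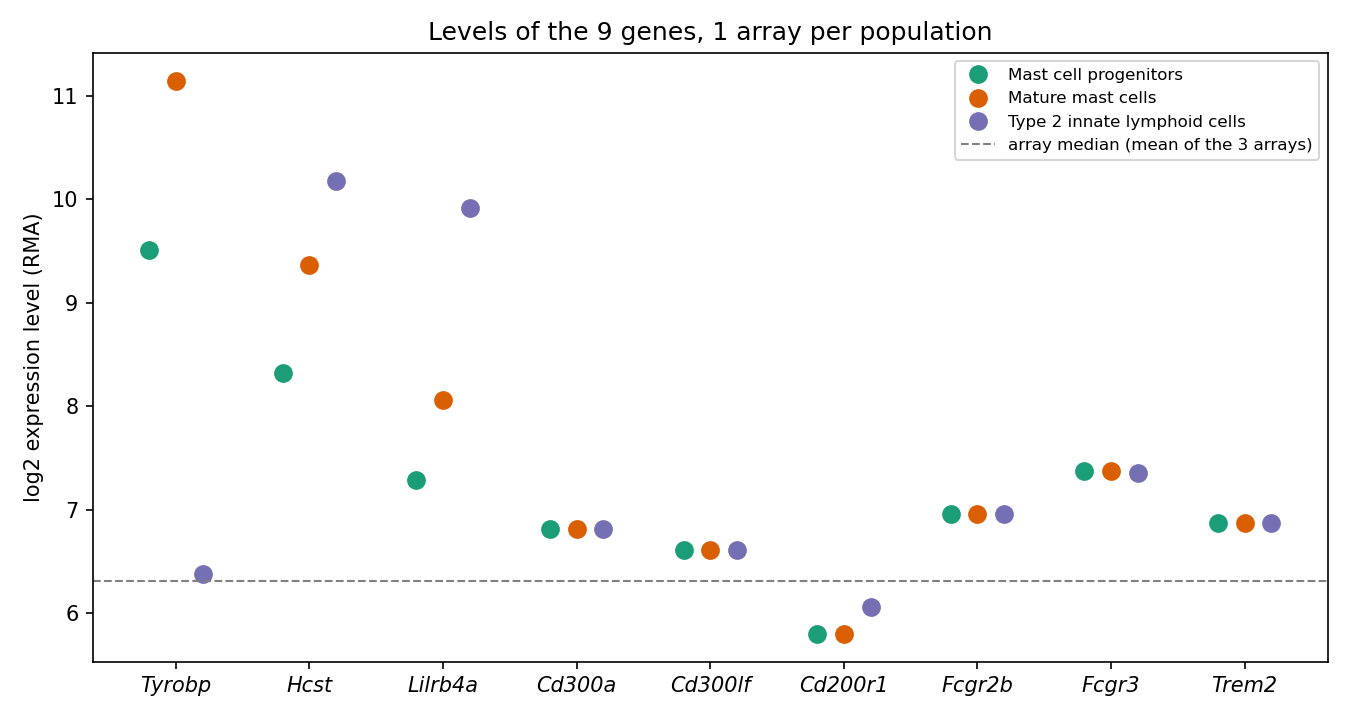
Log2 expression level (vertical axis) of each of the 9 genes in progenitors, mature cells and ILC2, 1 point per array, with the mean of the array medians as a dashed line. Tyrobp is at 9.51, 11.15 and 6.37, whereas Hcst and Lilrb4a have their highest points in ILC2 and the other 6 genes have nearly level points.

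Tyrobp was a transcript of both mast cell populations. Its log2 level was 9.51 in progenitors and 11.15 in mature mast cells, against 6.37 in ILC2. The last value was 0.07 above the median of its array, which was 6.30, so it lay at the middle of the probe sets and may be background. Tyrobp was thus 27.4-fold higher in mature mast cells and 8.78-fold higher in progenitors than in ILC2, and both folds may be understated for that reason. Between the mast cell populations it was 3.12-fold lower in progenitors, short of the 4-fold rule used for counts here. Only 38 genes, Tyrobp included, had a range over the 3 arrays at least as large as its 4.78 log2 units, which is 0.171% of genes.

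Few genes had the stepped order of Tyrobp, with mature cells at least 2-fold above progenitors, themselves at least 2-fold above ILC2. There were 13 of them (0.0586% of genes), and this pattern was chosen after the values were seen. Besides Tyrobp they included the granule protease genes Cma1 (10.42, 11.77 and 6.85 in progenitors, mature cells and ILC2), Mcpt4 (9.73, 11.20 and 4.70) and Tpsb2 (8.94, 11.74 and 7.85), and the receptor gene Mrgprb1. The rest were Aldh2, Cyp11a1, Dpep2, Gm26504, Rgs18, Serpinb1a, Snora75 and Zfp981. Other mast cell genes lacked this order. Cpa3 was only 1.45-fold lower in progenitors than in mature cells, and Kit only 1.20-fold higher in progenitors than in ILC2. By Euclidean distance between the 3 log2 levels, the 5 genes nearest to Tyrobp were Snora75, a small nucleolar RNA gene (distance 0.34), the provisional gene Gm26504 (0.35), the aldehyde dehydrogenase gene Aldh2 (0.91), the chymase gene Cma1 (1.20) and the tetraspanin gene Cd63 (1.31). Likeness over 3 arrays is a loose measure, and it describes these arrays alone.

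Hcst had another order. Its level was 8.32 in progenitors and 9.37 in mature mast cells, against 10.18 in ILC2, so it was highest where Tyrobp was lowest. It was 3.61-fold lower in progenitors than in ILC2, just short of 4-fold. Against mature cells it was 2.06-fold lower in progenitors, just past 2-fold, and mature cells were 1.75-fold below ILC2. Progenitors held low values of many bright genes. Of 568 genes above a log2 level of 8 in both other populations, Hcst among them, 128 (22.5%) had a progenitor level at least 2-fold below both, as Hcst did. The matching share was 1.5% of 466 genes for mature cells and 5.46% of 476 for ILC2. The part of this array-wide pattern in the progenitor levels of Hcst, Tyrobp and Lilrb4a was not tested.

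Tyrobp and Hcst are next to each other among the protein-coding genes of chromosome 7 in the RefSeq table of GRCm38.p6. Both were higher in mature cells than in progenitors, and they had opposite directions against ILC2. The Hcst promoter is shown because of that contrast between neighbours. No Tyrobp promoter was available here, so the sequence alone cannot bear on the contrast. Promoters in the RefSeq table of GRCm38.p6, taken as 250 bases before to 50 after a transcription start, were matched for 6 of the 9 genes (Hcst, Cd300a, Cd300lf, Fcgr2b, Fcgr3 and Trem2). That of Hcst is chr7:30419805-30420104 on the minus strand, and the capitals mark GGAA or its reverse complement TTCC, the core bound by ETS factors such as PU.1.
Hcst promoter: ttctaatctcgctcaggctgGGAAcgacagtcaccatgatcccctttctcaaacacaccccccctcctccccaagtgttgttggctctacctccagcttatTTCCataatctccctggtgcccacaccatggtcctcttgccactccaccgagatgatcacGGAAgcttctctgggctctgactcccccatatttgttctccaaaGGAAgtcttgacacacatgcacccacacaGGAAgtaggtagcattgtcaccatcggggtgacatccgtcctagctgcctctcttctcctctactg
It held 5 such matches. The other matched promoters held 3 to 7, and 96.0% of the 32851 promoters in the table held at least 1, with a median of 3. GATAA or TTATC, the core of GATA factor sites, was searched on both strands and matched in none of the 6, against 25.4% of all promoters. TGTGGT or ACCACA, a RUNX core, matched only in that of Cd300lf, against 16.8% of all promoters. These matches describe letters in a window and not binding, and with only 6 promoters their counts are no result about the genes.

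Lilrb4a encodes gp49B, an inhibitory receptor known on mouse mast cells. By the probe set that names it alone, its level was 7.29 in progenitors and 8.06 in mature mast cells, against 9.92 in ILC2. It was therefore highest in ILC2, by 6.19-fold over progenitors and by 3.62-fold over mature cells, and mature cells were 1.71-fold above progenitors. A second probe set, which names Lilrb4a together with its chromosomal neighbour Lilr4b, had a different order. It measured 5.22 in progenitors, against 6.55 in mature cells and 5.24 in ILC2, so that mature cells were highest, by 2.51-fold and 2.47-fold. With the mean of both probe sets, an alternative added after the data were seen, the difference between progenitors and ILC2 was -1.33 and that between mature and ILC2 was -0.28, in log2 units. The excess of Lilrb4a in ILC2 thus rests on 1 probe set. The 5 genes nearest to that probe set were Rbm39, a splicing regulator gene (distance 0.26), the respiratory chain genes Ndufs4 (0.35) and Ndufa12 (0.46), Ubl3 (0.43) and the ribosomal protein gene Rps26 (0.48).

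**Figure D2:**
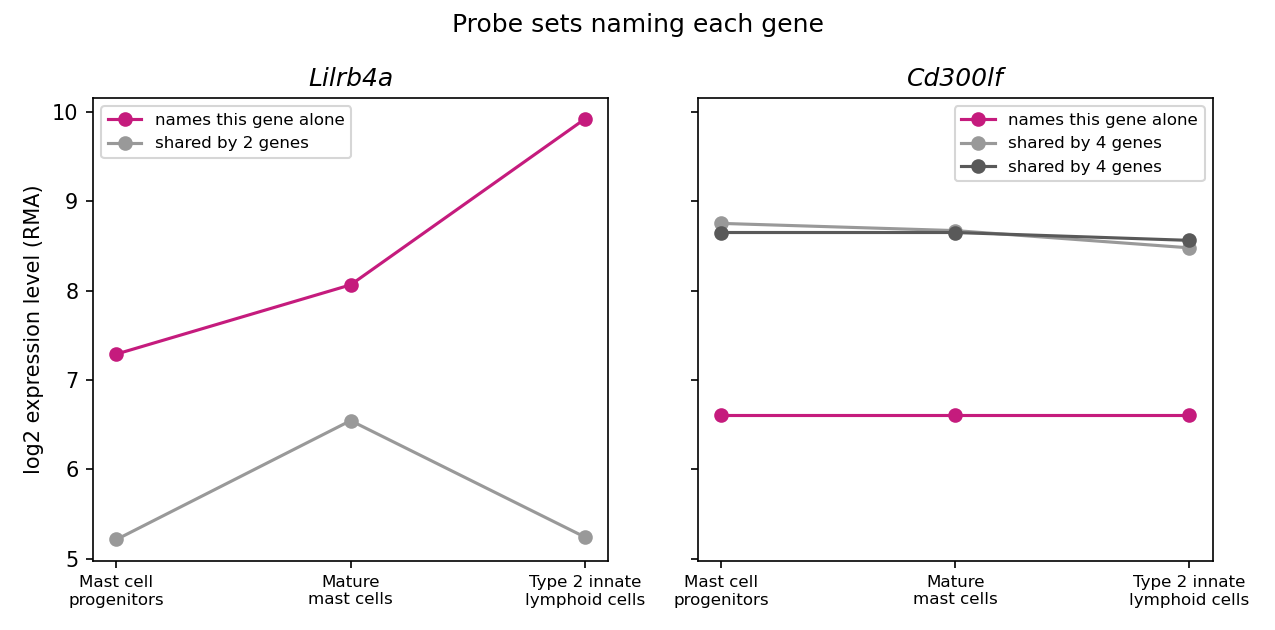
Log2 expression level (vertical axis) in each population for every probe set that names Lilrb4a (left) or Cd300lf (right), 1 line per probe set. The probe set naming Lilrb4a alone is highest in ILC2 (9.92), the shared one is highest in mature mast cells (6.55), and the 3 probe sets of Cd300lf are nearly level.

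The Fcγ receptors were flat although their proteins were part of the sort. Fcgr3 encodes CD16, an activating receptor for IgG complexes, and Fcgr2b encodes CD32, its inhibitory counterpart that recruits SHIP-1. Mast cells were gated as CD16/32 intermediate and ILC2 as CD16/32 negative. Fcgr2b was at 6.95 on all 3 arrays. Fcgr3 was at 7.37 in progenitors and mature cells and at 7.35 in ILC2, a difference of 0.02 log2 units. The arrays therefore did not show at the transcript level the CD16/32 difference by which the cells were sorted, and whether these probe sets respond to their transcripts at all in 100 cells cannot be read from equal values.

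The remaining receptors gave no difference of 2-fold. Cd300a, an inhibitory receptor for phosphatidylserine and phosphatidylethanolamine, was at 6.81 on all 3 arrays. Trem2, a lipid-binding receptor that signals through Tyrobp in macrophages and microglia, was at 6.87 on all 3. Cd300lf, which carries inhibitory motifs and can also activate, was at 6.61 on all 3 by the probe set that names it alone. A pair of probe sets shared by Cd300lf, Cd300ld3, Cd300ld4 and Cd300ld5 were at 8.75, 8.67 and 8.48, and at 8.65, 8.65 and 8.56, in progenitors, mature cells and ILC2. These cannot be assigned to Cd300lf. Cd200r1, an inhibitory receptor for CD200 that acts through Dok adaptors, was at 5.79 in both mast cell populations and 6.05 in ILC2, below the array median on every array. The other 8 genes were above the median on all 3 arrays.

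Counts by comparison follow the same pattern. A pair of rules of size were used, a log2 difference of at least 2 (4-fold) or of at least 1 (2-fold), each with the brighter level above its array's median. Between progenitors and mature mast cells, 0 of the 9 genes were 4-fold higher in progenitors (0.113% of all genes) and 0 were 4-fold lower (0.834%). At 2-fold, Tyrobp and Hcst were lower in progenitors (1.93% of all genes) and none was higher (0.509%). Hcst was no longer 2-fold lower after quantile normalization, with a difference of -0.93. Between progenitors and ILC2, Tyrobp was 4-fold higher in progenitors (0.207% of all genes) and Lilrb4a 4-fold lower (0.888%). At 2-fold Hcst joined the lower genes, where 1.88% of all genes were lower and 0.766% higher. Between mature mast cells and ILC2, Tyrobp was 4-fold higher in mature cells (0.573%) and none was 4-fold lower (0.401%). At 2-fold Tyrobp was higher (1.34%) and Lilrb4a lower (1.26%). The shares depend on level. Where the mean of both arrays was at least 8, 19.3% of 689 were 4-fold different between progenitors and ILC2, 10.7% of 759 between mature and ILC2, and 10.2% of 649 between the mast cell populations. At 2-fold the matching shares were 36.0%, 26.7% and 27.9%, far above those over all genes. These shares take either direction. By direction at 4-fold they were 3.05% higher and 16.3% lower in progenitors than in ILC2. Mature cells had 5.14% higher and 5.53% lower than ILC2. Between the mast cell populations 1.23% were higher and 8.94% lower in progenitors. At 2-fold, 6.78% of those 649 were higher in progenitors and 21.1% lower, as Tyrobp and Hcst were, both above 8 on both arrays. Against ILC2, 8.71% of the 689 were 2-fold higher in progenitors and 27.3% lower, as Hcst was. Of the 759, 78 were 2-fold higher in mature cells than in ILC2 and 125 lower, as Lilrb4a was. Each call above is of a gene with a level over 8 on at least 1 of its arrays, which is a looser rule. The mean of Tyrobp over progenitors and ILC2 was below 8, so that call lies outside the 689. The median difference of the 9 genes was 0 in each comparison, as was that of all genes. The comparisons share arrays, so their values are not independent.

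**Figure D3:**
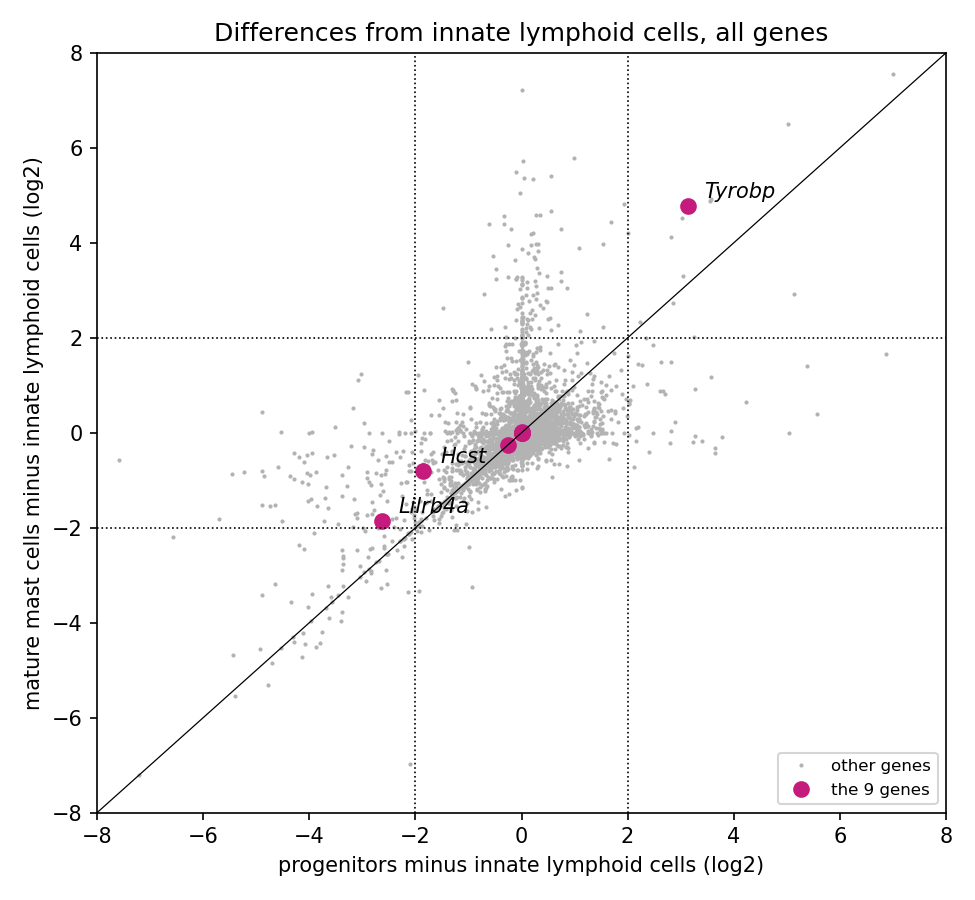
Log2 difference from ILC2 for every gene, in progenitors (horizontal axis) and in mature mast cells (vertical axis), with the 9 genes in colour, dotted lines at 4-fold and a diagonal of equal values. Tyrobp lies at 3.13 and 4.78, Lilrb4a at -2.63 and -1.86, Hcst at -1.85 and -0.81, and the other 6 genes lie at or near 0.

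Genes listed as receptor partners of the adaptors were looked at as a loose set. A place on the list, as for Kir3dl1, Cd226 or Klrb1c, does not mean that a receptor is known to signal through Tyrobp or Hcst. Of 17 so listed 14 were measured, 4 were tied on all 3 arrays, and 0 were above a log2 level of 8. Above the array median were 5 in progenitors, 4 in mature cells and 5 in ILC2. The comparisons gave 0 at 2-fold, where 2.44% to 2.65% of all genes were 2-fold different. With so small a share among all genes and so many ties among dim ones, 0 of 14 is no result about these receptors. Klrk1, which encodes NKG2D, the best-known partner of Hcst, was at 4.08, 3.94 and 4.09 in progenitors, mature cells and ILC2, below the array medians. Clec5a, a myeloid partner of Tyrobp, was at 4.81 on all 3 arrays. Pilrb1, an activating paired receptor, had the widest spread in the list, at 6.39, 6.04 and 6.99, and Siglec15, Siglech, Csf1r and Kir3dl1 each spread over at most 0.23 log2 units. Of 34 listed relatives of the receptor genes 24 were measured, 12 were tied, and 0 reached 2-fold, which for the same reason is no result about them. Cd300ld3, a relative of Cd300lf, spread the most, at 9.26, 8.80 and 9.34. Lilra5, Trem1, Treml2 and Fcrl1 spread over at most 0.42 log2 units. Among the others Pirb, an inhibitory receptor for MHC class I, was at 6.94 in both mast cell populations and 6.41 in ILC2, and the high-affinity IgG receptor gene Fcgr1 was at 6.79 on all 3 arrays.

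Genes listed for signalling after the activating motifs included some with high levels in mature mast cells. Of 30 listed 26 were measured and 11 were tied. At 2-fold, 3 were lower in progenitors than in mature cells (1.93% of all genes), 0 were higher (0.509%), and 4 were higher in mature cells than in ILC2 (1.34%). Progenitors and ILC2 were within 2-fold for all 26. The catalytic subunit gene of phosphoinositide 3-kinase γ, Pik3cg, measured 6.17 in progenitors, against 8.47 in mature cells and 6.07 in ILC2. It was listed as a gene of that kinase family, and a role after these motifs was not tested. Other genes of the family were level, with Pik3cd at 5.70 on all 3 arrays and Pik3r1 at 7.52, 7.56 and 7.53. The kinase gene Btk was at 5.94, 7.51 and 5.84, and the adaptor gene Lat2 at 8.52, 9.71 and 7.84. Fcer1g, the other widely used ITAM adaptor of mast cells and the common γ chain of Fc receptors, was at 7.31, 8.30 and 7.05. Its difference between progenitors and ILC2 was 0.26 log2 units, where that of Tyrobp was 3.13. Syk, the kinase that binds phosphorylated ITAMs, was at 6.51 on all 3 arrays.

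On the inhibitory side, 1 of 14 measured phosphatase and adaptor genes of 15 listed reached 2-fold. Inpp5d, which encodes SHIP-1, measured 7.21 in progenitors, against 8.34 in mature cells and 7.25 in ILC2. Ptpn6, which encodes SHP-1, was at 7.09, 7.09 and 6.91, and Ptpn11, which encodes SHP-2, at 6.30 on all 3. Of 28 further inhibitory receptors 25 were measured, 13 were tied, and only Klrg1 reached 2-fold. Klrg1, a receptor for cadherins, was at 6.05, 5.87 and 8.11, highest in ILC2 as Lilrb4a was. Milr1, which encodes the mast cell inhibitory receptor Allergin-1, was at 6.06, 6.99 and 6.06. Of 18 genes listed loosely as possible ligands 14 were measured, 6 were tied, and Anxa1 alone reached 2-fold, at 7.998, 9.07 and 8.05. A place on that list, as for Anxa1 or Cd47, does not mean that a gene is known to encode a ligand of the 9 genes' products. Cd47 was at 7.95, 7.81 and 8.53, and Ighg3 and Apoe spread over at most 0.46 log2 units. Cd200, the ligand of Cd200r1, was at 5.55 on all 3 arrays. Each of these 3 lists thus had 1 gene that spread over at least 2-fold across the populations, as 4.46% of all genes did. In each of these lists the median difference between any pair of populations was within 0.1 log2 units of 0, which was the median of all genes.

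**Figure D4:**
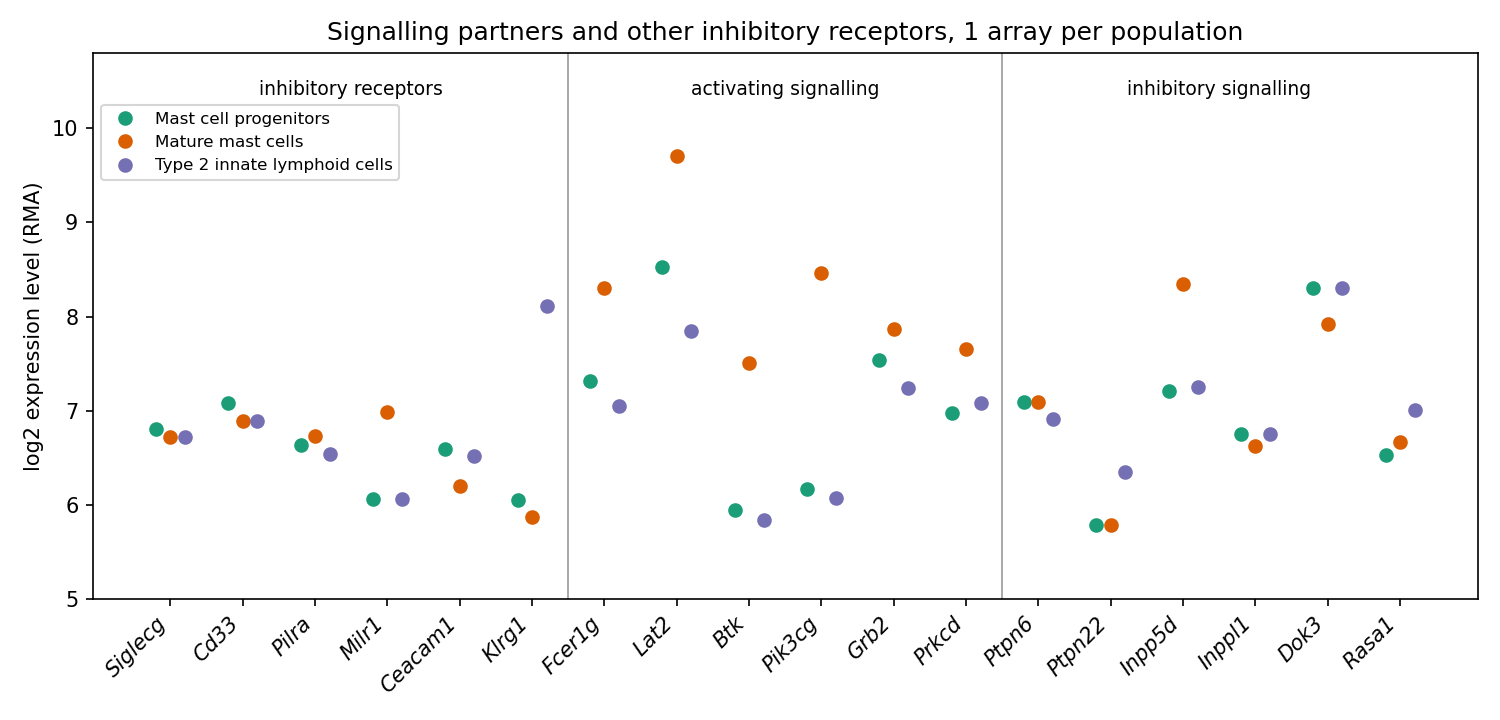
Log2 expression level (vertical axis) in each population, 1 point per array, for up to 6 genes with the widest spread in each of 3 lists, the further inhibitory receptors, the activating signalling genes and the inhibitory signalling genes. Among the plotted genes that spread over at least 2-fold, mature mast cells have the highest points for Fcer1g, Lat2, Btk, Pik3cg and Inpp5d, and ILC2 for Klrg1 (8.11).

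The sorted identities were checked against marker lists, since Tyrobp is abundant in macrophages and other myeloid cells and Hcst in natural killer cells. The 15 measured mast cell markers had mean log2 levels of 7.86, 9.45 and 6.41 in progenitors, mature cells and ILC2, and the 13 measured ILC2 markers 6.43, 6.42 and 7.45. Kit and Fcer1a, 2 of the defining mast cell genes, were at 6.88 and 5.37 in progenitors and at 10.29 and 8.87 in mature cells. In ILC2 they were at 6.63 and 5.05, so these sort genes were only 0.26 and 0.32 log2 units higher in progenitors. The mean of the mast cell markers in progenitors rests on few genes, since 6 of 15 were 2-fold above ILC2 (0.766% of all genes), led by Cpa3 with a difference of 7.01, and the median difference was 0.33. The ILC2 marker mean also rests on few genes. Only 4 of 13 were 2-fold lower in progenitors than in ILC2 (1.88% of all genes), and 4 in mature cells (1.26%). The median difference was -0.49 in both comparisons, and 3 of these markers were tied on all 3 arrays. Of 68 measured markers of other cells in 7 lists, only Ccr2 spread over 2-fold, where 4.46% of all genes did, and it was highest in ILC2 (9.50, against 5.82 in both mast cell populations). The other 18 measured macrophage and monocyte markers had mean levels of 6.26, 6.18 and 6.18, with Csf1r at 6.64, 6.41 and 6.60 and C1qa at 7.03 on all 3 arrays. The 9 natural killer cell markers had means of 5.91, 5.76 and 5.83. Most of these markers are dim, so differences in them may not be seen here, and the part of such cells in the levels of Tyrobp and Hcst was not tested.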

How the data were processed

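Transcript levels of 3 sorted peritoneal populations were measured on 1 whole-transcript array each, so the number of arrays limits the precision. The deposited table holds log2 levels for 41345 probe sets, normalized with RMA by the authors per the submitters' processing notes (no version named). RMA adjusts for background, brings the arrays to a common distribution and combines probes into probe sets. That the scale is log2 was inferred from the range of values.

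Names came from the platform's gene table, updated through Entrez identifiers to the RefSeq table of GRCm38.p6. In all, 23521 probe sets named 1 gene, 1814 several and 16010 were unnamed here. A gene was represented by its brightest single-gene probe set. Differences were counted at 4-fold or 2-fold with the brighter array above its median (6.32, 6.30 and 6.30 for progenitors, mature and innate lymphoid cells), and no test was possible. The counting code was run on simulated levels with independent noise and planted differences, without the ties seen on these arrays. That run checks the code and says nothing on the error of these arrays. The genes and 16 further lists were chosen with earlier results of these data known. Named were all 9 genes, the widest-spread genes above the median of each list (up to 6), and the 5 nearest genes of the 2 widest-spread members. Not every gene given by this rule is described, and list genes outside it, such as Klrk1, Clec5a and Fcgr1, were named after their values were seen. Python 3.11.15, pandas 2.3.3 and numpy 2.4.6 were used. Some list genes were not analysed here. The arrays' genome build is not given in the sources used here.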

Additional observations from a re-analysis of the deposited data

How the results depend on the processing

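Counts and differences were recomputed with the mean of each gene's single-gene probe sets, a floor at each array's 75th percentile or none, arrays centred on their medians, and quantile normalization. Under these, the differences of the 9 genes moved by at most 0.32 log2 units. Much of this was fixed in advance. Each of the 9 genes has 1 probe set that names it alone, so the mean could not move it. A floor does not enter a difference, and centring shifts all genes alike. Only quantile normalization could move the genes by differing amounts. Between progenitors and mature mast cells, the count at 2-fold was 1 in place of 2 after quantile normalization, Hcst being lost from just past 2-fold. With probe sets naming several genes included, added after seeing the data, 1 gene in place of 2 was 4-fold different between progenitors and innate lymphoid cells, and 1 in place of 2 was 2-fold different between mature and innate lymphoid cells. Lilrb4a was lost in both, with differences of -1.33 and -0.28, and it joined Tyrobp and Hcst at 2-fold between the mast cell populations. The other 33 of 36 recomputed counts stayed within 1.5 times, and those among them by the mean of single-gene probe sets could not move. No paired analysis was possible because each population has 1 array, and for the same reason no array could be left out.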
